A study of Vitis vinifera with 23 samples.

Results

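The grapes described here were berries of the white cultivar Sauvignon blanc. The genes were 6 linked by name or annotation to anthocyanins, the pigments of red berry skin. Among them were the regulators MYBA1 (Vv02s0033g00410), MYBA2 (Vv02s0033g00390) and MYBA3 (Vv02s0033g00450), and the glucosyltransferase UFGT (Vv16s0039g02230). The others were a gene annotated as an anthocyanidin 3-O-glucosyltransferase (Vv12s0034g00130), and the anthocyanin O-methyltransferase AOMT (Vv01s0010g03510). All 6 were chosen by identifier for this link to anthocyanins, with earlier results of these data known. The study had itself listed Vv12s0034g00130 among genes that responded to exposure in these samples. The 6 are part of the 29970 genes in the deposited table. FPKM counts the fragments of a transcript relative to its length and to the sequencing depth, so levels can be set side by side between genes. Genes entered the test when the average of any of the 8 groups reached 1 FPKM. All 6 did so, as did 20205 genes in the whole table, and UFGT did so through EL34 control alone, where 1 sample raised the mean.

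RNA was sequenced from whole berries without their seeds. Exposed grapes came from vine panels where leaves around the bunches had been taken away to let in light, and control grapes from panels whose bunches stayed shaded. Both were picked at the green stage EL31, the pre-véraison stage EL33, the véraison stage that the labels call EL34, and the ripe stage EL38. Each group had 3 samples, each from another panel of vines in 1 vineyard and season, except EL38 control, which had 2 after the authors left out an outlier. The comparison of exposed with control grapes asks how the berries responded to light, and the comparison of stages how the genes followed development.

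Anthocyanins are made at the end of the flavonoid pathway, which also gives flavonols and tannins. In red berries the MYBA transcription factors switch on the final steps at véraison. UFGT then attaches glucose to the anthocyanidin, which makes the pigment stable, and AOMT methylates the B ring of the finished pigment. In white cultivars MYBA1 typically carries a retrotransposon in its promoter and MYBA2 carries changes that disable the protein, so berries remain without colour. The MYBA genes lie next to each other and are similar in sequence, and the counting could divide reads between the copies, so the level of each copy is uncertain. In whole-berry RNA, fewer skin cells and less RNA per cell cannot be told apart.

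MYBA2 and MYBA3 transcripts were abundant in these white berries at EL34, while UFGT did not exceed 3.41 FPKM in any sample. MYBA1 was lower at EL34, averaging 28.2 FPKM in exposed and 37.1 FPKM in control samples. MYBA3 averaged 332 FPKM in exposed and 318 FPKM in control berries at EL34, and MYBA2 218 FPKM and 265 FPKM. Exposure did not move any of the 3 regulators past the threshold at any stage. The annotated glucosyltransferase Vv12s0034g00130 was the 1 gene of the 6 that rose with exposure, between 2.32-fold and 3.24-fold at the first 3 stages, and the groups overlapped at EL38. AOMT was highest in green berries and at or near 0 in ripe ones. The plot of the 6 genes by sample shows these patterns.

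**Figure D1:**
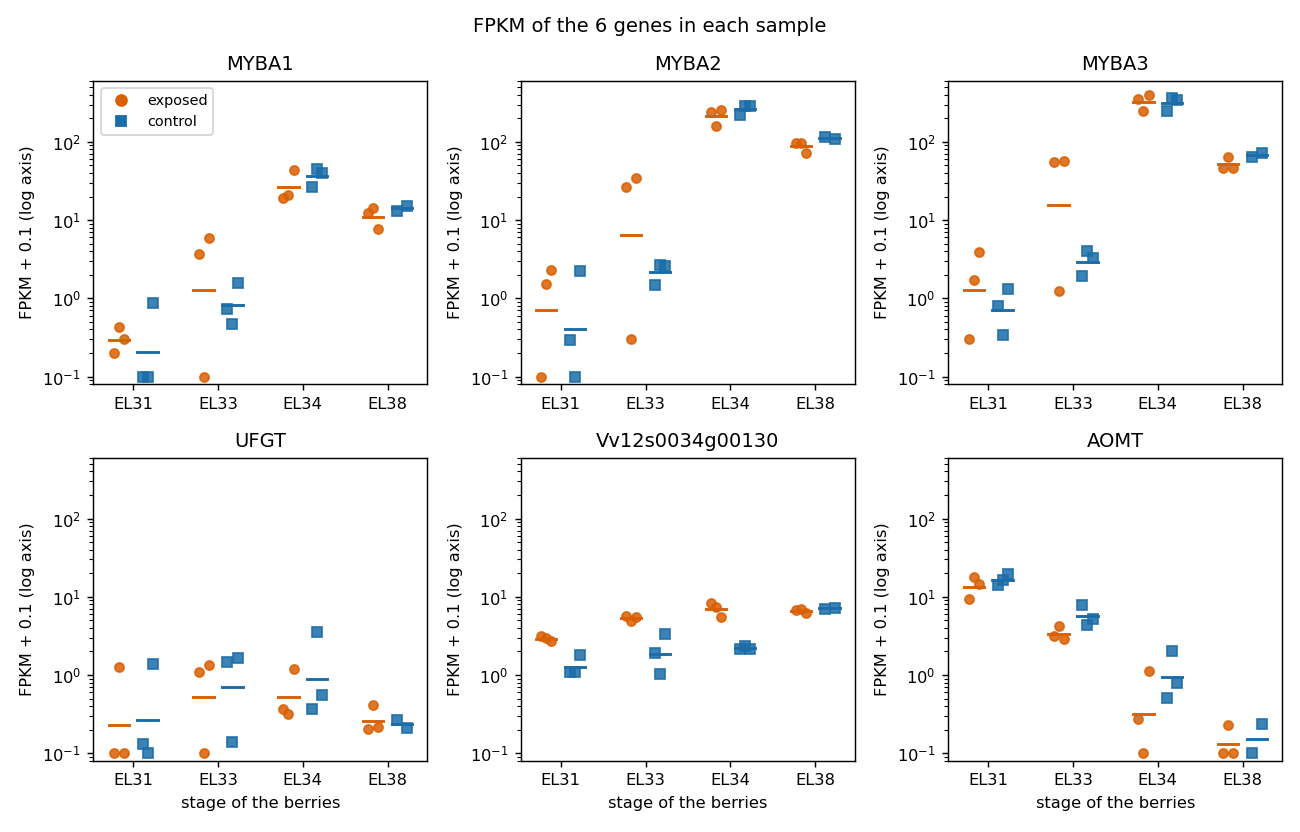
FPKM of the 6 genes in each of the 23 samples, with 0.1 added and on a log axis, by stage, with orange circles for exposed samples, blue squares for control samples and bars for means on the log scale. MYBA2 and MYBA3 have at least 160.0 FPKM in every sample at EL34, UFGT does not exceed 3.41 FPKM in any sample, and AOMT has lower means at each later stage.

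MYBA1, the regulator whose promoter differs between red and white cultivars, was the least abundant of the 3. That ranking holds for the model Vv02s0033g00410. Another model annotated as VvMYBA1, Vv02s0033g00380, averaged 275 FPKM in exposed and 371 FPKM in control samples at EL34. At EL31 MYBA1 (Vv02s0033g00410) had 0.0972, 0.327 and 0.201 FPKM in exposed samples. In 1 control sample it had 0.776 FPKM, and the other control samples were listed at 0. At EL33 it had 3.60, 0 and 5.77 FPKM in exposed samples, against 0.632, 0.375 and 1.45 FPKM in control samples. The exposed samples at EL33 thus lay both above and below all controls. At EL34 it had 19.3, 21.1 and 44.2 FPKM in exposed samples, against 26.1, 45.2 and 39.9 FPKM in control samples. In ripe EL38 berries it had 12.3, 14.0 and 7.69 FPKM in exposed samples, against 13.1 and 15.0 FPKM in control samples. The groups overlapped at each of the 4 stages.

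MYBA2, the neighbouring regulator, followed the same course at a higher level. At EL31 it was listed at 0 in 1 exposed sample and had 1.41 and 2.22 FPKM in the others, against 0.189, 0 and 2.14 FPKM in control samples. At EL33 the exposed samples had 26.8, 0.202 and 34.4 FPKM, against 1.40, 2.57 and 2.47 FPKM in control samples. Exposed sample 2 again stood apart from exposed samples 1 and 3. At EL34 MYBA2 had 242, 160.0 and 253.01 FPKM in exposed samples, against 223, 288 and 284 FPKM in control samples. At EL38 it had 96.4, 97.9 and 72.4 FPKM in exposed samples, against 117 and 110 FPKM in control samples. Here all exposed samples were below the controls, as they were for MYBA3. How many of all genes separate this way was not counted.

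MYBA3, the copy farthest along by identifier, was the most abundant of the 3 at EL34. It had 0.205, 1.61 and 3.83 FPKM in exposed samples at EL31, against 0.691, 0.241 and 1.24 FPKM in control samples. At EL33 it had 54.9, 1.15 and 57.7 FPKM in exposed samples, against 1.81, 3.93 and 3.18 FPKM in control samples. The EL33 pattern was thus shared by the 3 genes: exposed samples 1 and 3 above all controls and exposed sample 2 below them. At EL34 MYBA3 averaged 332 ± 77.8 FPKM in exposed and 318 ± 61.8 FPKM in control samples (SD, n = 3 each), with single values of 358, 245 and 394 FPKM, against 248, 366 and 339 FPKM. At EL38 it had 46.4, 63.3 and 46.1 FPKM in exposed samples, against 63.5 and 71.5 FPKM in control samples, and all exposed samples were below the controls.

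All 3 regulators rose at the step into véraison. In exposed berries the log2 change of EL34 against EL33 was 4.34 for MYBA1 (standard error 1.10, adjusted p = 0.0039 in limma), 5.03 for MYBA2 (1.44, adjusted p = 0.00881) and 4.36 for MYBA3 (1.09, adjusted p = 0.00347). In control berries the same step gave 5.48 for MYBA1 (standard error 1.10, adjusted p = 0.000502), 6.92 for MYBA2 (1.44, adjusted p = 0.000666) and 6.74 for MYBA3 (1.09, adjusted p = 6.03e-05). All log2 changes are on the scale of log2(FPKM + 0.1), which understates the change of low genes. The regulators therefore made up the 3 genes of the 6 that rose at this step, in exposed berries, where 21.4% of all genes tested rose, and in control berries, where 23% did. AOMT was the 1 gene that fell, beside 21% of all genes tested in exposed and 24.2% in control berries. The step into véraison moved many genes, so the share of the 6 is read against a high background. Leaving out EL33 exposed sample 2 lowered the change in exposed berries to 2.50 for MYBA1, 2.81 for MYBA2 and 2.53 for MYBA3, and ended the call of MYBA2 (adjusted p = 0.0585 in limma). Leaving out the 3 samples with the most seed storage RNA, an alternative chosen after the data were seen that leaves 1 exposed sample at EL34, ended the calls of MYBA1, MYBA2 and MYBA3 in exposed berries (adjusted p = 0.101, 0.0963 and 0.0578).

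The earlier step, EL33 against EL31, was called for fewer of the genes in control than in exposed berries, and that difference was not tested. In exposed berries MYBA3 rose by a log2 change of 3.64 (standard error 1.09, adjusted p = 0.0154 in limma), and Vv12s0034g00130 rose as well, so 2 of the 6 genes rose, beside 11.7% of all genes tested. MYBA1, with 2.14, and MYBA2, with 3.22, did not pass the threshold (adjusted p = 0.156 and 0.101). Without EL33 exposed sample 2 both passed, MYBA1 with 3.99 (adjusted p = 0.000535) and MYBA2 with 5.43 (adjusted p = 0.00112), and MYBA3 was 5.47, so that in exposed berries this step was then larger than the next for all 3. Both also passed with a pseudocount of 1. In control berries none of the 6 genes passed it in limma, against 11.5% of all genes that rose and 20.6% that fell, and MYBA1 changed by 1.98, MYBA2 by 2.44 and MYBA3 by 2.04, with adjusted p between 0.171 and 0.22. The 3 genes had unadjusted p between 0.0777 and 0.108 there, and AOMT was the 1 gene of the 6 with an unadjusted p under 0.05. The call of MYBA3 in exposed berries rested on EL33 exposed samples 1 and 3. Without sample 1 its change was 2.74 (adjusted p = 0.0884), without sample 3 it was 2.71 (adjusted p = 0.0944), and without both, an alternative chosen after the data were seen, it was -0.024. The call was also lost without EL31 exposed sample 1 (adjusted p = 0.0967).

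Between véraison and ripeness the values of all 3 regulators fell, and MYBA3 in exposed berries passed the threshold. In exposed berries EL38 against EL34 gave a log2 change of -2.66 for MYBA3 (standard error 1.09, adjusted p = 0.0471 in limma), the 1 call among the 6 genes, beside 29.5% of all genes that fell and 25.2% that rose at this step. MYBA1, with -1.24 (standard error 1.10), and MYBA2, with -1.28 (1.44), did not pass the threshold. In control berries MYBA3 changed by -2.22 (standard error 1.22, adjusted p = 0.152), MYBA1 by -1.36 (1.23) and MYBA2 by -1.21 (1.61). None of the 3 passed it. In both treatments every EL38 sample was nonetheless below every EL34 sample for each of the 3 genes. How many of all genes separate this way was not counted. The standard errors come from a spread shared over all 8 groups, among them EL31 and EL33 groups with values near 0. The call of MYBA3 sat close to the threshold and was lost in 17 of 23 fits that each left out 1 sample, with an adjusted p of up to 0.105, and with a replicate block within treatment (adjusted p = 0.0524).

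The ratio of MYBA3 to MYBA2 in FPKM shifted with stage. At EL34 the FPKM of MYBA3 divided by that of MYBA2 was 1.48 to 1.56 in exposed samples and 1.11 to 1.27 in control samples, so the groups did not overlap. At EL38 the ratio was 0.481 to 0.647 in exposed and 0.544 to 0.649 in control samples. At EL33 it was 1.68 and 2.05 in the 2 exposed samples with at least 1 FPKM of MYBA2, and 1.29 to 1.53 in control samples. Reads divided between the similar copies could also move this ratio. It therefore does not show that the copies themselves changed unequally, or which of them changed. Because it was looked at after the values were seen, it is given as a description with no test.

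**Figure D2:**
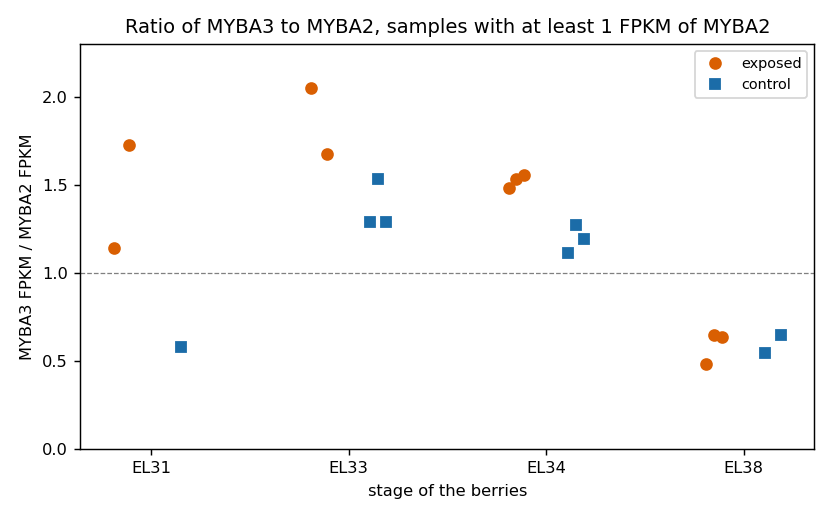
FPKM of MYBA3 divided by FPKM of MYBA2 in each sample with at least 1 FPKM of MYBA2, by stage, with orange circles for exposed samples, blue squares for control samples and a dashed line at equal levels. The ratio is 1.11 or higher in every sample at EL34 and 0.649 or lower in every sample at EL38.

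Exposed and control berries did not differ past the threshold for any MYBA gene. At EL33 the log2 fold change in exposed relative to control berries was 0.67 for MYBA1, 1.59 for MYBA2 and 2.43 for MYBA3 (standard errors 1.10, 1.44 and 1.09, adjusted p = 0.847, 0.663 and 0.268 in limma). The 95% interval for MYBA3 was 0.14 to 4.73. Without EL33 exposed sample 2 the values were 2.52, 3.81 and 4.26, and MYBA3 passed the threshold (adjusted p = 0.00213). Without samples 1 and 3, an alternative chosen after the data were seen, they were -3.02, -2.85 and -1.23, and none passed. The direction at EL33 was thus set by which exposed samples were kept. At EL34 the log2 fold changes were -0.46, -0.30 and 0.06, and at EL38 they were -0.35, -0.36 and -0.39, in the order MYBA1, MYBA2 and MYBA3. The 95% intervals at EL34 were -2.78 to 1.86, -3.33 to 2.73 and -2.24 to 2.35. At EL38 they were -2.94 to 2.25, -3.75 to 3.02 and -2.96 to 2.18. With intervals this wide, a moderate difference in the regulators was not detectable.

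EL33 exposed samples 1 and 3 also stood apart in genes of ripening. Kiwellin grip22 (Vv06s0004g02560), a protein that accumulates in ripening fruit, had 3790, 281 and 2730 FPKM in EL33 exposed samples, against 231, 489 and 291 FPKM in control samples. Polygalacturonase PG1 (Vv08s0007g08330), which loosens the cell wall, had 126, 12.2 and 173 FPKM, against 6.51, 23.1 and 23.1 FPKM. Over 30 genes that the study listed as rising with ripening in its control berries, the mean log2(FPKM + 0.1) was 4.95, 3.80 and 4.90 in EL33 exposed samples, against 3.89, 3.93 and 3.90 in control samples. Over 30 genes listed as falling it was 4.03, 4.37 and 4.02 in exposed samples, against 4.45, 4.37 and 4.37 in control samples. These lists were chosen on the control samples used here. The relative depth of EL33 exposed samples 1, 2 and 3 was 1.38, 1.0 and 1.49. The part of ripening genes or depth in the MYBA values was not tested.

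**Figure D3:**
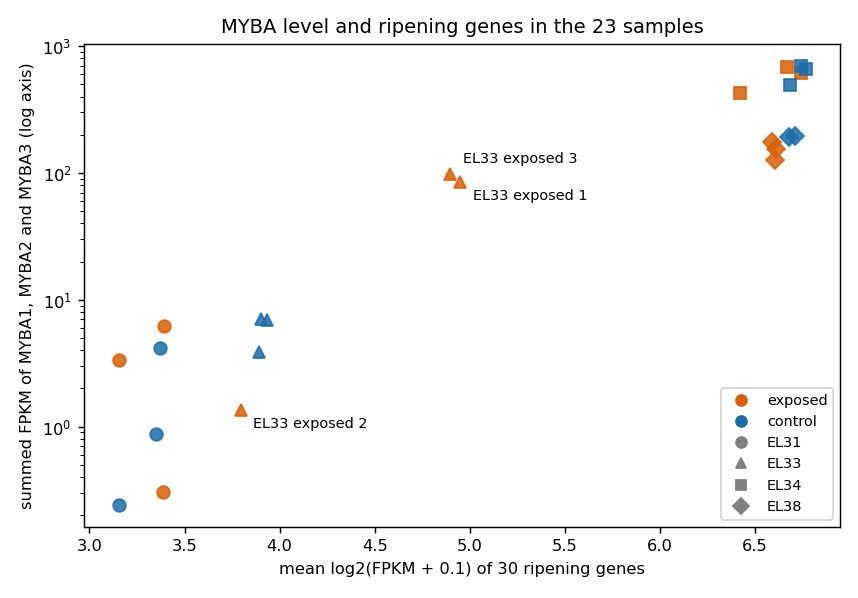
Summed FPKM of MYBA1, MYBA2 and MYBA3 (log axis) against the mean log2(FPKM + 0.1) of 30 ripening genes in the 23 samples, orange for exposed, blue for control, with shapes giving the stage. EL33 exposed samples 1 and 3, with sums of 85.3 and 97.8 FPKM, lie between the other EL33 samples and those of EL34 on both axes.

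Another gene model of the same cluster, Vv02s0033g00380, which is annotated as VvMYBA1 and is not among the 6, had a similar course. It had 223, 165 and 437 FPKM at EL34 in exposed samples, against 220, 613 and 280 FPKM in control samples. At EL33 it had 41.5, 0 and 22.8 FPKM in exposed samples and was listed at 0 in all control samples. It shows the same split of EL33 exposed samples as the 3 MYBA genes, and reads shared between the copies were not separated here. A more distant MYB, Vv14s0006g01290, annotated as MYB113, was higher in exposed berries. Averaged over the stages its exposure effect was 1.48 on the log2 scale (standard error 0.20, adjusted p = 6.41e-05 in limma), and it passed the threshold at EL33 and EL38 taken alone. At EL31 it had 5.44, 6.37 and 5.66 FPKM in exposed samples, against 1.91, 2.22 and 3.23 FPKM in control samples.

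UFGT, the enzyme that the MYBA factors switch on in red berries, was scarcely expressed. At EL34, where the 3 MYBA genes together had 426 to 691 FPKM in exposed and 497 to 699 FPKM in control samples, UFGT had 0.264, 0.217 and 1.10 FPKM in exposed samples, against 0.270, 3.41 and 0.458 FPKM in control samples. The 3.41 FPKM of EL34 control sample 2 was its highest value. Its mean over all samples, 0.618 FPKM, was above that of 5.0% of the genes tested. At EL38 it had 0.102, 0.311 and 0.115 FPKM in exposed samples, against 0.162 and 0.112 FPKM in control samples.

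UFGT values split within groups rather than between them. In 8 of the 23 samples it had at least 1 FPKM, and in the other 15 it was below 0.5 FPKM, from 0 to 0.458 FPKM. At EL31 it had 0, 1.15 and 0 FPKM in exposed samples, against 0.0308, 0 and 1.29 FPKM in control samples. At EL33 it had 1.01, 0 and 1.25 FPKM in exposed samples, against 1.39, 0.0383 and 1.54 FPKM in control samples. Samples of both treatments and of 3 stages were among those with at least 1 FPKM. No comparison of UFGT passed the threshold. Its log2 fold change of exposed against control lay between -0.80 and 0.15 over the 4 stages, with adjusted p of at least 0.878 in limma, and the interval at EL34 was -3.57 to 1.97. At these levels a moderate difference was not detectable.

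The glucosyltransferase Vv12s0034g00130, whose sugar acceptor is known here only from its annotation, rose with exposure at the first 3 stages. At EL31 it had 3.0, 2.86 and 2.61 FPKM in exposed samples, against 0.980, 0.985 and 1.69 FPKM in control samples. At EL33 it had 5.53, 4.84 and 5.36 FPKM in exposed samples, against 1.83, 0.927 and 3.23 FPKM in control samples. At both stages all exposed samples were above all controls, and how many of all genes separate this way was not counted. At EL34 it averaged 6.89 ± 1.40 FPKM in exposed and 2.12 ± 0.103 FPKM in control samples (SD, n = 3 each), and the exposed samples had 8.11, 7.20 and 5.35 FPKM, against 2.06, 2.24 and 2.07 FPKM in control samples. At EL38 it had 6.72, 6.93 and 6.05 FPKM in exposed samples, against 6.82 and 7.14 FPKM in control samples, and the groups overlapped.

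The effect of exposure on Vv12s0034g00130, as a log2 fold change against control, was 1.19 at EL31 (standard error 0.29, adjusted p = 0.0254 in limma), 1.51 at EL33 (0.29, adjusted p = 0.00796) and 1.63 at EL34 (0.29, adjusted p = 0.00364). At EL38 it was -0.09 (standard error 0.33, adjusted p = 0.967), with an interval of -0.78 to 0.60. It was the 1 gene of the 6 called at each of the first 3 stages. The background was 3.8% of genes higher and 0.881% lower at EL31, 2.54% and 0.95% at EL33, and 2.17% and 1.16% at EL34. At EL38 none of the 6 genes was called in limma, none had an unadjusted p under 0.05, and 1.52% of all genes were higher and 3.26% lower. Averaged over the stages Vv12s0034g00130 was higher in exposed berries by 1.06 on the log2 scale (standard error 0.15, adjusted p = 0.000127), and it was the 1 gene of the 6 called, where 6.44% of all genes were higher and 6.09% lower. Because the study had picked this gene for its response in the same samples, these tests are not independent evidence of it.

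**Figure D4:**
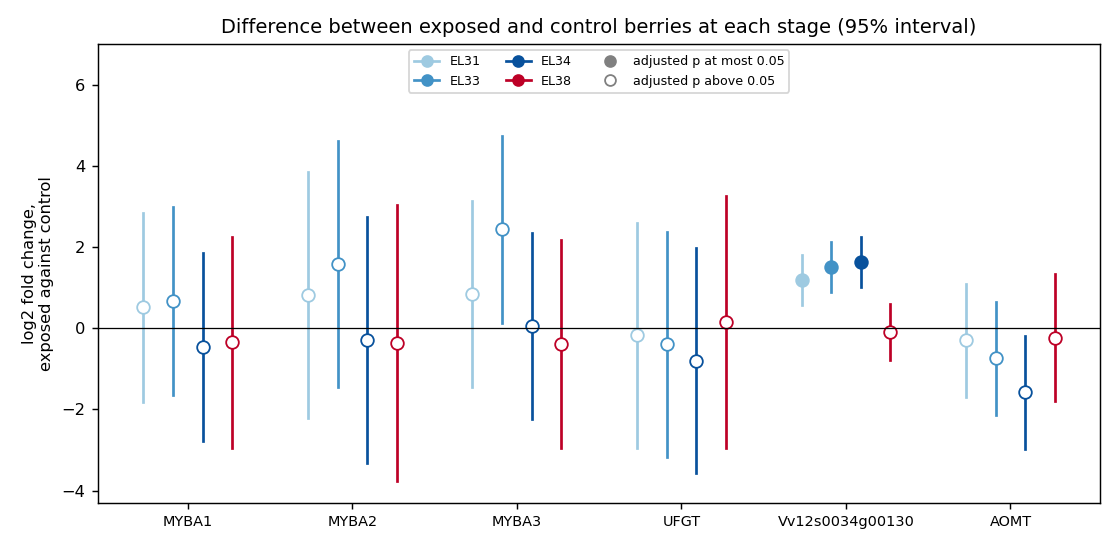
Log2 fold change of exposed against control berries for the 6 genes, with 95% intervals, from limma on log2(FPKM + 0.1), with the 4 stages of each gene from left to right and points filled where the adjusted p is at most 0.05. Vv12s0034g00130 is filled at EL31, EL33 and EL34, with 1.19, 1.51 and 1.63, and open at EL38, with -0.09.

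Control berries reached the level of exposed berries for Vv12s0034g00130 at EL38. In control berries EL38 against EL34 gave a log2 change of 1.67 (standard error 0.33, adjusted p = 0.000466 in limma), the 1 gene of the 6 that rose at that step, beside 21.8% of all genes tested, while AOMT fell, beside 23.6%. In exposed berries it rose at the first step, EL33 against EL31, by 0.87 (standard error 0.29, adjusted p = 0.0308), and the later steps gave 0.37 and -0.05. That call was lost without EL31 exposed sample 1, 2 or 3 or EL33 exposed sample 1 or 3 (adjusted p up to 0.0857), and without both EL33 samples (0.263). The test of whether the exposure effect differed between the stages gave an F of 6.10 for this gene, which did not pass the threshold over all genes (unadjusted p = 0.00515, adjusted p = 0.109 in limma). None of the 6 genes passed that test, which called 2.1% of all genes. With a pseudocount of 1, or without EL33 control sample 2 or 3, it passed.

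The EL31 call of Vv12s0034g00130 was lost when any 1 of 5 of the 6 samples of that stage was left out, with adjusted p between 0.0659 and 0.123 and a log2 fold change between 1.07 and 1.25, and without EL31 control sample 3 it stayed, at 1.43. It was also lost with the range of the sample numbers as a term (1.09, adjusted p = 0.0746). With each stage fitted alone, none of the calls at EL31, EL33 and EL34 passed, at the same fold changes (adjusted p = 0.0767, 0.238 and 0.0643). RNA of seeds, which had been removed from the berries, was present unequally. The summed FPKM of 9 seed storage genes was 2.43 to 34.3 in exposed and 1.10 to 1.78 in control samples at EL31, 0.771 to 87.0 and 3.31 to 905 at EL33, 174 to 1164 and 192 to 215 at EL34, and 36.7 to 38.9 and 29.1 to 34.9 at EL38. At EL34 the control sums were nearly all from 1 gene, Vv14s0066g00700, and the mean log2(FPKM + 0.1) over the 9 was 0.68 to 5.81 in exposed samples, against -1.31 to -0.92 in control samples, so all exposed samples stood above the controls. Of the 9, between 2 and 5 were at 0 in EL31 exposed samples and between 4 and 7 in EL31 control samples. At EL34 between 0 and 1 were at 0 in exposed samples and between 2 and 3 in control samples. Without the 3 samples with the most seed storage RNA the log2 fold change at EL34 was 1.88, with 1 exposed sample left (adjusted p = 0.0649), and at EL33 it was 1.53 (adjusted p = 0.0445). The part of seed RNA was otherwise not tested.

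AOMT, which methylates anthocyanins in coloured berries, was highest in green berries. At EL31 it averaged 13.8 ± 4.13 FPKM in exposed and 16.6 ± 2.79 FPKM in control samples (SD, n = 3 each), with 9.36, 17.5 and 14.4 FPKM, against 13.8, 16.5 and 19.4 FPKM. At EL33 it had 3.01, 4.07 and 2.76 FPKM in exposed samples, against 7.67, 4.23 and 5.11 FPKM in control samples. All exposed samples were then below the controls, and the share of all genes that separate this way was not counted. At EL34 it had 0.174, 0 and 1.03 FPKM in exposed samples, against 0.415, 1.90 and 0.694 FPKM in control samples. At EL38 it was listed at 0 in 2 exposed samples and 1 control sample and had 0.126 FPKM in the remaining exposed sample, against 0.137 FPKM in the other control sample.

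In exposed berries AOMT changed by -2.01 on the log2 scale at EL33 against EL31 (standard error 0.66, adjusted p = 0.0266 in limma), where 20.6% of all genes fell, and by -3.41 at EL34 against EL33 (0.66, adjusted p = 0.000444). The first of these calls was lost without EL31 exposed sample 2 or 3 or EL33 exposed sample 1 or 3 (adjusted p up to 0.0875), with quantile normalization (0.0791) and with sample number ranges in the model (0.0708). In control berries the first step was -1.56 (adjusted p = 0.083), the second -2.58 (0.66, adjusted p = 0.00364), and the last, EL38 against EL34, -2.60 (0.74, adjusted p = 0.00802). The call at EL38 was lost without EL38 control sample 1 (-1.98, adjusted p = 0.113), and when sample number ranges entered the model (-2.30, adjusted p = 0.0857). AOMT was lower in exposed than in control berries in the group means of all 4 stages, by a log2 fold change of -0.71 averaged over the stages (95% interval -1.43 to 0.01, adjusted p = 0.198 in limma). The EL38 means were near 0, at 0.0421 FPKM in exposed and 0.0685 FPKM in control berries. Samples of the treatments overlapped at EL31, EL34 and EL38. How many of all genes were lower in all 4 group means was not counted. An exact two-sided permutation of the exposure labels within stages, with 80000 arrangements, gave an unadjusted p = 0.0489 for AOMT, 1 of 6 genes tested in this way, and between 0.225 and 0.869 for the MYBA genes and UFGT. At EL34 alone the log2 fold change was -1.58 (adjusted p = 0.25), and without EL34 exposed sample 3 it was -2.50 and passed (adjusted p = 0.029).

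Transcripts of the pathway that leads to anthocyanidins were present in the same berries. The genes taken as steps shared with other flavonoids, from chalcone synthase to the flavonoid hydroxylases, averaged between 3.08 and 309.7 FPKM over the samples, and the late steps, DFR and the 2 LDOX genes that make anthocyanidins, between 81.4 and 238 FPKM. DFR (Vv18s0001g12800), which reduces dihydroflavonols, had 101, 96.2 and 97.1 FPKM at EL34 in exposed samples, against 104, 91.2 and 94.1 FPKM in control samples. LDOX (Vv02s0025g04720), which forms the anthocyanidin that UFGT would glucosylate, had 412, 367 and 315 FPKM, against 327, 371 and 346 FPKM. Both overlapped between treatments, and both were far above UFGT in every sample of that stage. These values were chosen for display after they had been seen.

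Averaged over the stages, 4 of the 10 shared-step genes were higher in exposed berries and none lower in limma, beside 6.44% of all genes higher and 6.09% lower, with a median log2 fold change over the 10 of 0.21 beside -0.03 over all genes tested. Chalcone synthase 2 (Vv14s0068g00920), which makes the first flavonoid of the pathway, had 119, 67.7 and 94.7 FPKM at EL34 in exposed samples, against 32.1, 25.1 and 40.9 FPKM in control samples, and averaged over the stages it was higher by 1.37 on the log2 scale (standard error 0.12, adjusted p = 3.88e-07). The other called genes were chalcone synthase 1 (0.76), chalcone isomerase Vv13s0067g03820 (0.43) and flavanone 3-hydroxylase Vv18s0001g14310 (0.63). Of the 3 late-step genes none was called in the averaged comparison, with a median of 0.04, and LDOX Vv08s0105g00380 was lower in exposed berries at EL31 alone (-0.52, adjusted p = 0.0388 in limma). With quantile normalization the averaged difference of Vv08s0105g00380 also passed (-0.27, adjusted p = 0.0451).

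Read against the same 6.44% higher and 6.09% lower, the branches beside anthocyanins gave 1 call among 3 enzymes averaged over the stages, the flavonol synthase Vv18s0001g03470, which makes flavonols from the same intermediates and was higher in exposed berries. Anthocyanidin reductase (Vv00s0361g00040), which diverts anthocyanidins to tannins, had -0.04 and was not called. Among 3 regulators of those branches, MybPA1 (0.69) and MybF1 (0.50), which act on tannin and flavonol genes, were higher in exposed berries averaged over the stages, and MybPA2 was not called. For MybF1 the effect was -0.13 at EL31 and -0.38 at EL33, and EL38 was the 1 stage that passed taken alone. These lists were taken from annotations in the study's supplements, partly from tables chosen on these samples, so their direction is not independent evidence.

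**Figure D5:**
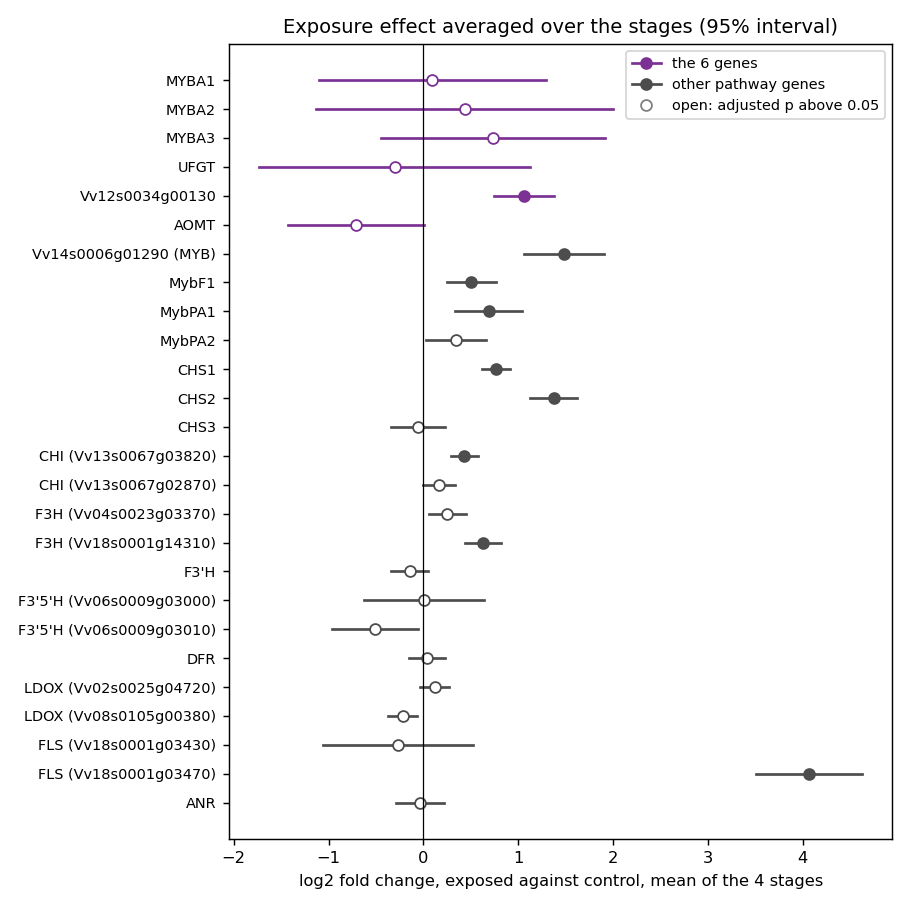
Log2 fold change of exposed against control berries averaged over the 4 stages, with 95% intervals, for the 6 genes (purple) and for other MYB regulators and enzymes of the flavonoid pathway (grey), with points filled where the adjusted p in limma is at most 0.05. Among the 6, Vv12s0034g00130 alone is filled, at 1.06.

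Among 9 other genes annotated as flavonoid or anthocyanidin glycosyltransferases, 1 was higher in exposed berries averaged over the stages and 2 were lower, beside 6.44% and 6.09% of all genes. The higher one, Vv12s0034g00080, annotated as flavonoid-glucosyltransferase 1, lies near Vv12s0034g00130 by identifier. It had 23.4, 18.3 and 20.2 FPKM at EL31 in exposed samples, against 4.12, 4.47 and 6.18 FPKM in control samples. Averaged over the stages it was higher by 1.31 on the log2 scale (standard error 0.11, adjusted p = 3.63e-07 in limma), and it was called at EL31, EL33 and EL34 and not at EL38, the same stages as Vv12s0034g00130. Reads shared between these related genes were not separated here. The lower ones were Vv03s0017g02000 (-0.68) and Vv06s0004g06370 (-0.62).

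The genes most like each of the 6 were ranked by Pearson's r of log2(FPKM + 0.1) over the 23 samples, which share stage and treatment, with the 6 genes themselves left out of the ranking, and are given as a description. For MYBA1 and MYBA2 the closest other gene was the class IV chitinase Vv05s0094g00340 (r = 0.98 and 0.99), an enzyme that cuts chitin. Its mean was 18093 FPKM at EL34 in exposed and 18503 FPKM in control berries. For MYBA3 it was the gibberellin 20-oxidase Vv03s0063g01290 (r = 0.99), an enzyme of hormone synthesis, with 699 FPKM in exposed and 513 FPKM in control berries at EL34. Vv03s0063g01290 also led for MYBA3 in deviations from the group means (r = 0.97). Thaumatin genes, whose proteins accumulate in ripening berries, were among the first 3 genes so ranked for each regulator: Vv02s0025g04300 for MYBA1 and MYBA2 and Vv02s0025g04330 for MYBA3.

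The 3 regulators were also like each other, with r of 0.96 to 0.98 between pairs, and of 0.82 to 0.96 in deviations from the group means. UFGT was less like MYBA1 over all samples (r = 0.43) than in deviations within groups (r = 0.78). The value in deviations includes many values near 0. Both genes were listed at 0 in EL31 control sample 2 and EL33 exposed sample 2, and a 0 can be a failed estimate. AOMT ran opposite to MYBA1 over all samples (r = -0.78). For UFGT the closest gene was Vv04s0079g00690, which has no annotation in the sources used here (r = 0.87, and 0.95 in deviations). For Vv12s0034g00130 it was Vv02s0025g04830 (r = 0.91), also without annotation. For AOMT it was Vv14s0081g00520 (r = 0.96), followed by Vv08s0007g01920 (r = 0.96), annotated as MYB DIVARICATA, with 103 FPKM at EL31 in exposed and 124 FPKM in control berries. With Spearman's rho the first 3 shared 2 genes for MYBA1, 1 each for MYBA2, MYBA3 and UFGT, and none for Vv12s0034g00130 and AOMT.

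Genes next to the 6 by identifier differed in how far they resembled them. Of 17 gene models within 100 digits of MYBA1, 6 were tested and 8 were at 0 in all samples, and the tested ones that resembled it were MYBA2, MYBA3 and Vv02s0033g00380. Among the 15 tested neighbours of UFGT the highest r was 0.48. Around Vv12s0034g00130, 4 of 17 were tested. Like it, Vv12s0034g00040, Vv12s0034g00060 and Vv12s0034g00080 had higher means in exposed than in control berries at EL31, EL33 and EL34. At EL31 these means were 6.34 and 2.83 FPKM, 2.53 and 1.13 FPKM, and 20.6 and 4.92 FPKM. The remaining tested neighbour, Vv12s0034g00210, had 29.8 FPKM in exposed and 28.5 FPKM in control berries at EL31. Around AOMT, 12 of 18 were tested, 6 of them had an r between 0.85 and 0.91 with it, and Vv01s0010g03490 ran closest to it (r = 0.91), with 6.69 FPKM at EL31 in exposed and 7.24 FPKM in control berries and 0 in both at EL38. Vv01s0010g03460 (r = 0.90) and Vv01s0010g03570 (r = 0.89), annotated as an NLI interacting factor, followed.

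By level, the order of the 6 differed between stages. At EL31 AOMT was highest in both treatments, at 13.8 FPKM in exposed and 16.6 FPKM in control berries, and the other genes averaged 2.82 FPKM or less, with overlapping samples among the MYBA genes and UFGT. At EL33 MYBA3 and MYBA2 had the highest means in exposed berries, 37.9 and 20.5 FPKM with AOMT at 3.28 FPKM, but not in exposed sample 2, while in control berries AOMT was highest at 5.67 FPKM in the means, with MYBA3 at 2.97 FPKM and MYBA2 at 2.15 FPKM. At EL34 MYBA3 came first and MYBA2 next in each of the 6 samples, then MYBA1 and Vv12s0034g00130, and UFGT and AOMT last, with overlapping samples. At EL38 MYBA2 came first and MYBA3 next in each of the 5 samples. Vv12s0034g00130 followed MYBA1, and UFGT and AOMT were again last.

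Depth and sample quality were examined over all samples. Relative depth, estimated from the smallest FPKM values, ranged 3.31-fold between samples, from 0.711 to 2.35, and 19950 to 21932 genes were above 0. Summed FPKM ranged from 1866200 to 25433000, the highest in EL33 control sample 1. A median of 83 genes per sample were listed at 0 while the other samples of the group averaged at least 10 FPKM, so a 0 in these data can be a failed estimate, and genes with such values are given sample by sample. Ripening genes were also set beside the stage labels. The study had chosen them on the control samples used here, so low EL31 and high EL34 control values are no independent check. The EL33 values are given above. Over the 30 ripening genes the mean log2(FPKM + 0.1) was 3.15 to 3.39 at EL31 in exposed samples and 3.16 to 3.37 in control samples, and at EL34 it was 6.42 to 6.74 in exposed and 6.68 to 6.77 in control samples.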

How the data were processed

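Poly(A) mRNA of 23 berry samples was sequenced by the authors, who base-called with CASAVA 1.8.2 (per the submitters' processing notes), aligned reads to the V1 genome of PN40024 with TopHat and computed the deposited FPKM values with Cufflinks. Handling of reads shared between copies is not given in the sources used here. Read counts were not used here, so depth is only relative and no counting interval is given.

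Tests used limma (version 3.58.1, R 4.3.3) and a model holding all 8 group means, fitted to the FPKM values as log2 after adding 0.1, then eBayes with a trend, and Benjamini-Hochberg adjustment over the 20205 genes tested within each comparison. An adjusted p of at most 0.05 was called. The code was tested on simulated data. Likeness was computed in Python 3.11.15.

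All 6 genes are named. Other genes are named by likeness (the first 3), by identifier within 100 digits, or, from pathway lists, by a call or a high mean. The DFR and LDOX values and the ratio of copies were added after their values were seen. Members and lists were chosen with earlier results of these data known.

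Exposed and control samples that share a replicate number came from different panels, and their deviations from the group means correlated between -0.03 and 0.15, so the numbers were not taken as pairs. The numbers also recur at each stage within a treatment, where correlations were -0.0867 to 0.116. Within a treatment, the sample numbers of a replicate end in the same digits at every stage. Whether those digits mark panels shared by the stages is not given in the sources used here. The averaged comparison, the stage steps, the test between stages and the exact permutation treat samples of different stages as independent. If panels recur, the averaged comparison and the permutation rest on fewer independent units than the 23 samples. The stage steps then leave out a pairing, which the block within treatment takes in. Pseudocounts, filters, scalings, a replicate block, number ranges, single stages, eBayes settings and left-out samples were tried as alternatives.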

Additional observations from a re-analysis of the deposited data

Results flagged for a closer look

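The exposure effect differed between stages for 2 pathway genes beside the 6, by the moderated F test of limma over all genes. For MybF1 (Vv07s0005g01210), a regulator of flavonol synthesis, F was 17.3 (adjusted p = 0.00673). It had 2.25, 4.35 and 4.38 FPKM at EL38 in exposed samples, against 0.874 and 0.732 FPKM in control samples, a log2 fold change of 2.0 (adjusted p = 0.000517), while at EL31, EL33 and EL34 the fold changes were -0.13, -0.38 and 0.51 and none passed. For the flavonoid 3'-hydroxylase Vv09s0002g01090, which adds a hydroxyl group to the B ring, F was 16.8 (adjusted p = 0.00711). On the log2 scale the exposure effect was 0.64 at EL33 (adjusted p = 0.0538) and -1.11 at EL38 (adjusted p = 0.00359), where it had 78.5, 62.2 and 44.6 FPKM in exposed samples, against 116 and 146 FPKM in control samples. Both rest on the 2 control samples at EL38.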

How the results depend on the processing

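Counts below are of the 6 genes called, and 37 alternative fits were made. At EL31, 0 of 6 were called, in place of 1, with the number range as a term and with each stage fitted alone. Fitting stages alone also gave 0 at EL33 and 0 at EL34. Leaving out EL33 exposed samples 1 and 3, chosen after the data were seen, gave 0 at EL33, 0 for EL33 against EL31 in exposed berries (MYBA3 reversed to -0.024) and 2 in control berries. Leaving out the 3 samples with most seed storage RNA, also chosen afterwards, gave 0 at EL34, 1 for EL34 against EL33 in exposed berries, 0 for EL38 against EL34 in exposed berries and 1 for EL33 against EL31 in control berries. For EL38 against EL34 in exposed berries the count was 0, in place of 1, with no filter, quantile normalization, the number range, eBayes without a trend, and robust eBayes. Pseudocount 1 gave 5, in place of 3, for EL33 against EL31 in exposed berries and 1, in place of 0, for the effect differing between stages. EL33 against EL31 in control berries had 1, in place of 0, with pseudocounts 0.5 and 1 and quantile normalization. The number range gave 1, in place of 2, for EL38 against EL34 in control berries. In the exact permutation test 2 genes had an unadjusted p of at most 0.05 for the averaged effect. That count is not comparable with the 1 call of limma, which used an adjusted p. The cause of these changes was not tested, beyond the smaller number of samples where some were left out.

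With a replicate block for the shared numbers, 1 of the 6 was called at EL31, EL33 and EL34 and 0 at EL38, as without it, and the block changed the count of no other comparison by over 1.5 times, except that a block within treatment gave 0 for EL38 against EL34 in exposed berries.

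Leaving out each sample in turn, the count was 0 to 1 at EL31, 1 to 2 at EL33, 1 to 2 at EL34, 0 at EL38, 1 to 2 averaged over the stages and 0 to 1 for the effect differing between stages. In exposed berries it was 0 to 5 for EL33 against EL31, 3 to 4 for EL34 against EL33 and 0 to 1 for EL38 against EL34. In control berries it was 0 to 2, 4 to 5 and 1 to 3 for the same steps. Of 2568 values for single genes, 1 changed sign with a call at stake, 57 lost a call and 29 gained one. Low FPKM limits what can be seen for UFGT at all stages and for AOMT at EL38.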

Other observations

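Gene models beside the MYBA genes held single extreme values. Vv02s0033g00480 reached 594 FPKM in 1 EL34 control sample and averaged 0 in each of the other 7 groups. Vv02s0033g00550 reached 14661 FPKM in 1 EL31 exposed sample and averaged 0 elsewhere. Neither has an annotation in the sources used here.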
